A study of Mus musculus with 24 samples.

Results

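Small leucine-rich proteoglycans (SLRPs) are secreted proteins of the extracellular matrix whose curved leucine-rich repeats bind collagen fibrils. The 10 genes described here are 7 SLRPs (Dcn, Lum, Bgn, Fmod, Ogn, Aspn and Prelp), the collagen-binding protein gene Dpt, and the leucine-rich repeat genes Islr and Lrrc15. They were chosen by name, as the family together with Dpt and Islr, with the knowledge that some of them respond to Cre alone, so the values of the wild-type Cre and GFP libraries took part in the choice. All 10 symbols mapped to an Ensembl ID among the 45706 in the deposited count table, and all 10 were among the 16573 genes with enough counts to be tested.

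The libraries came from mouse embryonic fibroblasts, connective tissue cells cultured from E13.5 embryos, with 3 libraries in each of 8 groups. By name the cells are wild type (WT), Vhl, Rassf1a or Vhl/Rassf1a. Every one of the 4 genotypes comes as a GFP group, labelled control, and a Cre group, labelled KO, WT Cre included. The Vhl protein directs a ubiquitin ligase to the alpha subunits of hypoxia-inducible factors (HIF), which are then destroyed, and Rassf1a encodes a microtubule-binding scaffold of the Hippo pathway. The labels give neither the alleles, nor how Cre or GFP was delivered, nor how many embryos or cultures stand behind a group, so the p-values measure the spread between these libraries, which may be technical. The series' design note speaks instead of single cells of kidney tubule, and the sample labels were followed.

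Decorin (Dcn), biglycan (Bgn) and asporin (Aspn) belong to one class of SLRPs, and lumican (Lum), fibromodulin (Fmod) and Prelp to another. Osteoglycin (Ogn) is a member of a further class. Decorin and biglycan carry chondroitin or dermatan sulfate chains, lumican and fibromodulin carry keratan sulfate, and both kinds sit on the surface of fibrils, where they limit or guide lateral growth. Several of them also bind TGF-beta or signal through receptors at the cell surface. Dermatopontin (Dpt) binds decorin and speeds fibril formation, Lrrc15 is a membrane protein of activated fibroblasts, and Islr is a marker of mesenchymal stromal cells.

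The promoters of 5 members are shown first, because the comparisons below turn on their Cre responses. Each sequence holds the 250 bases before the RefSeq start site in the build GRCm38.p6, and capitals mark, on either strand, the HIF core ACGTG or GCGTG, the Smad core CAGAC and the AP-1 motif TGANTCA.

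Dpt (chr1:164796413-164796662, plus strand): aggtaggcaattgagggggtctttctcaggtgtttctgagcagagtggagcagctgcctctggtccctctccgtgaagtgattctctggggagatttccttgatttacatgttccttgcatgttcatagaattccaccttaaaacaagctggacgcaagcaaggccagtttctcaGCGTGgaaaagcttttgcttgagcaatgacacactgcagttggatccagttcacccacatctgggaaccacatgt
Lrrc15 (chr16:30283255-30283504, minus strand): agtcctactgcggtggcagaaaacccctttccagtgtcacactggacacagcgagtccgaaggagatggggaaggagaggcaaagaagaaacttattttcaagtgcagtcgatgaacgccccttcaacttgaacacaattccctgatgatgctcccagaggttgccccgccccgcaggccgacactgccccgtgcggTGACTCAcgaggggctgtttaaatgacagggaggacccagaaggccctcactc
Islr (chr9:58158555-58158804, minus strand): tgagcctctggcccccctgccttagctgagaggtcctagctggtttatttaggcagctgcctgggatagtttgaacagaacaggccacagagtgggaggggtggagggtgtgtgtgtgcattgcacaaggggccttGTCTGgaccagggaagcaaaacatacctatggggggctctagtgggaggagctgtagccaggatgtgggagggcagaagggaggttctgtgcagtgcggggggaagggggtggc
Fmod (chr1:134037004-134037253, plus strand): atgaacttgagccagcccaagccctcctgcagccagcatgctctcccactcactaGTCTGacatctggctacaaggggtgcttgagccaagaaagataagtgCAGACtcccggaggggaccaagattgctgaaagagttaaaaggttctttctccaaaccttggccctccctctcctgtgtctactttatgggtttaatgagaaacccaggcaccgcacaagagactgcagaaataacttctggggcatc
Bgn (chrX:73483351-73483600, plus strand): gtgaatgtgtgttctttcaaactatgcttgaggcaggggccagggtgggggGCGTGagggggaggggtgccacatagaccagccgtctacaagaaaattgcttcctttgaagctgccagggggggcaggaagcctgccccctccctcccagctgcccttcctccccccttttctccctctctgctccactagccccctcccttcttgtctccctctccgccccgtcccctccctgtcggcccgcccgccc

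Dpt has a HIF core 75 bases before its start site, and Bgn has one 199 bases before. No HIF core was found in the windows of Islr, Fmod or Lrrc15. Fmod holds CAGAC 195 and 148 bases before its start, Islr holds it 114 bases before, and Lrrc15 holds TGANTCA 53 bases before. RefSeq promoters were matched for 8 of the 10 members, without Dcn and Lum. The HIF core was present in the windows of Bgn, Aspn and Dpt, against 38.6% of all 32851 RefSeq promoters of that length. CAGAC was present in Fmod, Prelp and Islr, against 42.2% of promoters, and TGANTCA in Lrrc15 alone of the 8, against 6.7%. A match is a string of letters, not a binding site. The RefSeq start of Islr, at base 58158554, differs from the start of the longest GENCODE model at base 58204306.

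Fibroblast identity was seen in each of the 24 libraries. Vim was at 4395 to 5811 CPM (counts scaled to library size), Col1a1 at 11013 to 18486 and Thy1 at 592.1 to 962.1. Vhl served as the check of the labels and was at 25.7 to 27.6 CPM in Vhl GFP libraries and 2.34 to 2.85 in the Cre libraries of that genotype. In Vhl/Rassf1a cells it was at 20.8 to 23.8 CPM with GFP and 1.77 to 2.7 with Cre. It was at 22.5 to 29.1 CPM in the WT and Rassf1a libraries. Rassf1, read over all its isoforms and looked up after the other values were seen, was at 25.8 to 31.2 CPM in Rassf1a GFP and 25.2 to 27.5 in Rassf1a Cre, which overlapped. In cells of the Vhl/Rassf1a genotype the GFP libraries were at 30.1 to 37.2 CPM and those with Cre at 42.8 to 46.9, so the gene-level count gave no check of the Rassf1a label, and loss of that isoform was not tested. Library totals were 29.9 to 55.8 M counts. Macrophage markers summed to 3.94 to 7.21 CPM over 6 genes and endothelial markers to 5.55 to 14.5 over 6 genes. A pair of libraries, replicate 1 of Rassf1a GFP and replicate 2 of Vhl/Rassf1a GFP, stood apart from their groups. Each was set against the mean of the other 2 libraries of its group. These deviations correlated with the GC content of the genes at 0.793 and 0.806 over 10540 genes. They correlated with each other at 0.85 over 10553 genes. A link to GC content was not confined to this pair. In other groups, by the same measure, WT Cre replicate 2 was at 0.618, WT GFP replicate 3 at 0.599 and Vhl Cre replicate 1 at -0.581. The companions of the pair in their own groups were between -0.734 and -0.633. Each companion was set against a mean that holds the library that stands apart, so its value follows in part from that library. Xist and Ddx3y, transcripts of the X and Y chromosomes chosen after their values were seen, were both present in every library. In the Vhl genotype Xist was at 254.7 to 269.7 CPM in GFP and 143.6 to 196.0 in Cre, and Ddx3y at 40.1 to 42.0 and 55.1 to 60.5, without overlap. The genotypes differed too. Among GFP libraries Ddx3y was at 47.5 to 53.5 CPM in WT, 18.6 to 26.2 in Rassf1a and 12.4 to 19.3 in Vhl/Rassf1a. Xist was at 136.0 to 177.2, 192.5 to 340.6 and 198.3 to 354.0 CPM in the same order. The part of these differences in the comparisons between genotypes was not tested.

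Per kilobase of exon, biglycan mRNA outweighed the other members in each library. Its level was 779.4 to 1086 RPKM (CPM divided by exon length in kilobases), and it made up 88.6% ± 1.19 (SD, n = 3) of the members' summed RPKM in WT GFP. That share was lowest in Vhl GFP, at 78.2% ± 1.13 (SD, n = 3). The median RPKM over the 24 libraries was 44.2 for Ogn, 39.3 for Aspn and 25.1 for Fmod. It was 13.6 for Lrrc15, 11.7 for Prelp and 4.37 for Lum, and between 3.03 and 3.32 for Islr, Dcn and Dpt. Decorin, one of the most abundant proteoglycans of adult connective tissue, was thus a low transcript in these embryonic cells. Its rank depends on the exon length used, 5838 bases against 2448 for Lum. In CPM its mean was above that of Lum in each group, at 11.4 against 4.95 in WT GFP. Bgn was also the steadiest member, with the highest library at 1.39 times the lowest. The same ratio was 11.6 for Islr and 7.55 for Lum. Each member had at least 62 counts in each library.

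**Figure D1:**
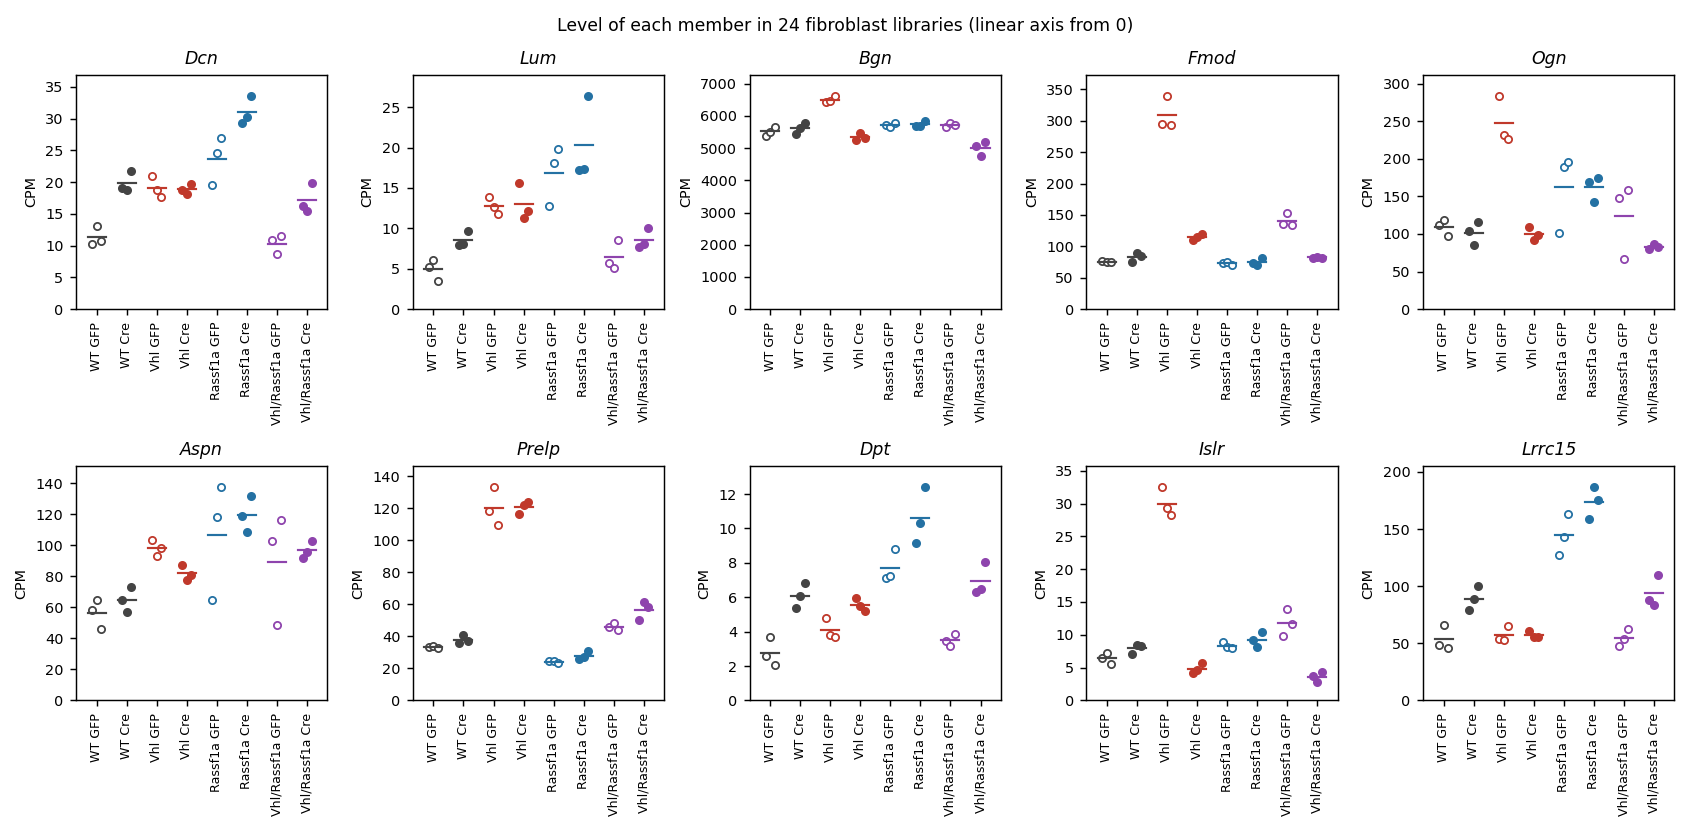
Level of each of the 10 members in CPM (linear axis from 0) in the 24 libraries, with open points for GFP, filled points for Cre, and a bar at the mean of each group of 3. Fmod, Ogn, Islr and Bgn peak in Vhl GFP, Prelp is high in both Vhl groups, and Dcn, Dpt and Lrrc15 are lowest in GFP groups and highest in Rassf1a Cre.

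The first question was which members moved with Cre in cells without an altered Vhl. In WT cells these values chose the members, so they are a description with no test. Dpt was at 2.58, 3.67 and 2.08 CPM in the 3 WT GFP libraries and at 5.40, 6.06 and 6.80 in the WT Cre libraries, a difference of 1.12 on the log2 scale (SE 0.17). Each Cre library lay above each GFP library. Dcn went from 10.3, 13.1 and 10.8 CPM to 19.1, 18.8 and 21.8 (log2 difference 0.80, SE 0.13), and the groups did not overlap. Lrrc15 was at 48.5, 66.1 and 45.8 CPM with GFP and 78.8, 88.8 and 100.1 with Cre (0.74, SE 0.13), again without overlap. These genes encode a fibril-bound proteoglycan, its binding partner and a membrane protein.

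Lumican, the neighbour of decorin on chromosome 10, was at 5.25, 6.10 and 3.50 CPM in WT GFP and 7.88, 8.04 and 9.67 in WT Cre (log2 difference 0.77, SE 0.23). The remaining members differed less. Their log2 differences ran from -0.11 (SE 0.23) for Ogn to 0.31 (SE 0.15) for Islr, with 0.03 (SE 0.04) for Bgn.

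Where Vhl was deleted alone, the 10 genes split. Islr, Fmod, Ogn and Bgn fell, Dpt rose, and Dcn, Lum, Lrrc15, Prelp and Aspn did not pass the test. Thus 4 members were lower and 1 was higher, against 18.7% of all tested genes lower and 17.4% higher, 36.1% in either direction (edgeR quasi-likelihood test, Benjamini-Hochberg adjusted p below 0.05). The median log2 change was -0.14 over the members and -0.01 over all tested genes.

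Islr had the largest fall of the 10 members. It was at 32.5, 29.3 and 28.3 CPM in Vhl GFP and 4.11, 4.61 and 5.67 in Vhl Cre, and the groups were far apart. The log2 change was -2.65 (SE 0.15, adjusted p = 2.36e-12, edgeR), with a Cre level 84.1% below the GFP level. Islr shares 181 exon bases with its neighbour Islr2 on the same strand, whose own level was between 0.0872 and 0.819 CPM in the 24 libraries.

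Fibromodulin binds the same region of collagen as lumican and takes part in the assembly of young fibrils. Its level was 294.2, 339.8 and 292.6 CPM in Vhl GFP and 110.8, 115.4 and 119.0 in Vhl Cre. The groups did not overlap, and the log2 change was -1.42 (SE 0.07, adjusted p = 3.66e-13, edgeR). Even after the fall, the Vhl Cre libraries stayed above each WT library, where Fmod was at 74.3 to 90.2 CPM.

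Osteoglycin was at 283.6, 231.7 and 226.2 CPM in Vhl GFP and 108.8, 91.4 and 98.2 in Vhl Cre. All Cre values lay below all GFP values, and the log2 change was -1.31 (SE 0.23, adjusted p = 9.27e-05, edgeR). The Vhl Cre level overlapped that of both WT groups. Biglycan fell less, from 6419, 6447 and 6622 CPM to 5258, 5478 and 5326 (log2 change -0.28, SE 0.04, adjusted p = 2.60e-06, edgeR), without overlap. Bgn lies on the X chromosome, and the part of the Xist and Ddx3y differences between Vhl GFP and Vhl Cre in its change was not tested.

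Dpt was at 4.79, 3.80 and 3.66 CPM in Vhl GFP and 5.98, 5.47 and 5.18 in Vhl Cre (log2 change 0.45, SE 0.16, adjusted p = 0.0353, edgeR). The groups did not overlap, but the call was lost without Vhl Cre replicate 1 (adjusted p = 0.116) or 2 (0.0635) and without Vhl GFP replicate 2 (0.103) or 3 (0.13). Dcn was at 21.0, 18.8 and 17.6 CPM with GFP and 18.8, 18.1 and 19.7 with Cre. Its log2 change of -0.02 had a 95% interval of -0.28 to 0.24. For Lrrc15 the interval was -0.28 to 0.29, around a change of 0.00.

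Aspn had a log2 change of -0.27 (SE 0.23, adjusted p = 0.411), although its 3 Vhl Cre libraries, at 77.4 to 87.3 CPM, were all below the Vhl GFP libraries at 93.3 to 103.1. In a fit of only those 6 libraries its adjusted p was 0.000245. Prelp was high and level, at 118.3, 133.1 and 109.6 CPM in Vhl GFP and 116.4, 122.2 and 124.0 in Vhl Cre (log2 change 0.01, 95% interval -0.15 to 0.17).

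**Figure D2:**
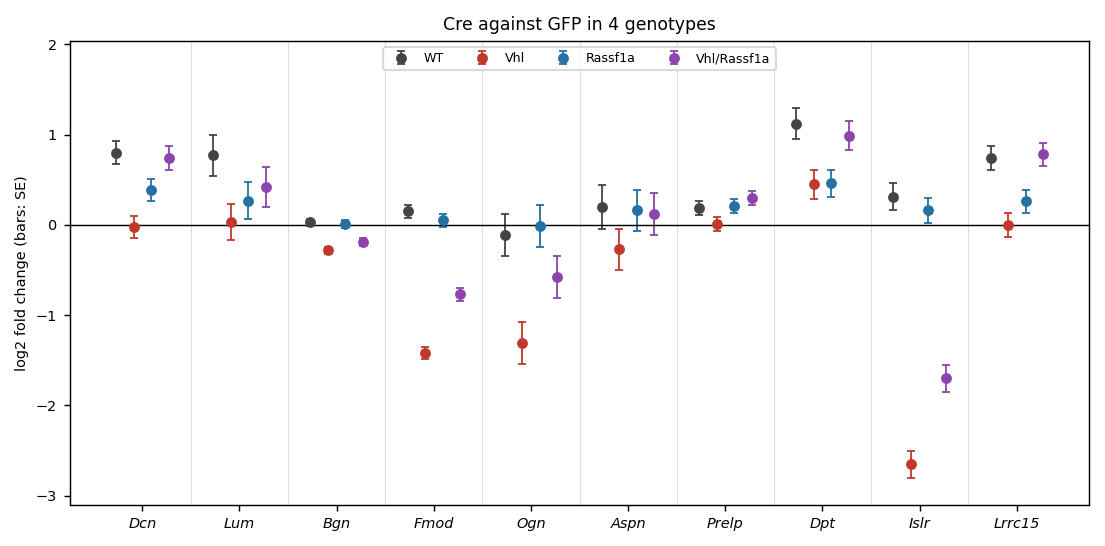
Log2 fold change of each member between Cre and GFP libraries in the 4 genotypes, from the edgeR fit of 24 libraries, with bars of 1 SE. Islr and Fmod lie well below 0 in Vhl and Vhl/Rassf1a, whereas Dcn, Dpt and Lrrc15 lie above 0 in WT and Vhl/Rassf1a, and Dcn and Lrrc15 lie near 0 in Vhl.

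Rassf1a Cre cells were set against Rassf1a GFP cells to ask what changed with Cre in that genotype alone. None of the 10 members passed the test in edgeR or in DESeq2, against 0.392% of all tested genes, or 65 genes. At an unadjusted p below 0.05, 3 members were higher (Dcn, Dpt and Prelp). Dpt was at 7.13, 7.21 and 8.78 CPM with GFP and 9.15, 10.3 and 12.4 with Cre (log2 difference 0.46, SE 0.15, adjusted p = 0.321, edgeR), with no overlap. Dcn was at 19.5, 24.6 and 27.0 CPM with GFP and 29.3, 30.2 and 33.6 with Cre (0.39, SE 0.12, adjusted p = 0.26). Lrrc15 was at 127.4, 143.4 and 163.3 CPM with GFP and 158.9, 186.7 and 175.6 with Cre (0.26, SE 0.13, adjusted p = 0.774), and these groups overlapped. In a fit without the filter on low counts, Dcn, Dpt and Lrrc15 passed. The differences from the WT response itself were not tested, because the WT values chose the members.

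In Vhl/Rassf1a cells Cre went with both patterns. Dpt, Lrrc15, Dcn and Prelp rose and Islr, Fmod and Bgn fell, which makes 4 members higher and 3 lower, against 14.9% of all tested genes higher and 14.8% lower (29.7% in either direction). Dpt was at 3.44, 3.19 and 3.88 CPM with GFP and 6.31, 6.46 and 8.03 with Cre (log2 change 0.99, SE 0.16, adjusted p = 5.84e-05, edgeR). Lrrc15 rose from 47.5, 54.0 and 62.2 CPM to 88.1, 83.2 and 109.6 (0.78, SE 0.13, adjusted p = 9.59e-05). Dcn rose from 10.9, 8.64 and 11.5 CPM to 16.3, 15.5 and 19.9 (0.74, SE 0.13, adjusted p = 8.12e-05). None of these 3 pairs of groups overlapped.

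Prelp, whose protein links the basement membrane to the matrix beneath, was at 45.6, 48.2 and 43.9 CPM in Vhl/Rassf1a GFP and 50.3, 61.5 and 58.3 in Vhl/Rassf1a Cre (log2 change 0.30, SE 0.08, adjusted p = 0.00481, edgeR). The rise was small but free of overlap. Islr fell from 9.78, 14.0 and 11.7 CPM to 3.68, 2.81 and 4.37 (-1.70, SE 0.15, adjusted p = 1.15e-08). Fmod fell from 135.1, 153.5 and 133.5 CPM to 82.0, 83.7 and 81.5 (-0.77, SE 0.07, adjusted p = 1.71e-08). Both genes ended within or below the range of the WT libraries, which was 5.48 to 8.48 CPM for Islr and 74.3 to 90.2 for Fmod. Bgn went from 5642, 5774 and 5731 CPM to 5055, 4754 and 5181 (-0.19, SE 0.04, adjusted p = 0.000327), which is 12.6% lower.

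Ogn and Lum missed the threshold in Vhl/Rassf1a cells, and leaving out 1 GFP library changed this in each case. Ogn was at 148.4, 66.0 and 157.9 CPM with GFP and 80.1, 86.4 and 83.0 with Cre (log2 difference -0.58, SE 0.23, adjusted p = 0.0655, edgeR), so the low GFP library was replicate 2, which stands apart. Without it the log2 change was -0.88 (adjusted p = 0.00047). Lum was at 5.69, 5.15 and 8.52 CPM with GFP and 7.67, 8.04 and 10.1 with Cre (0.42, adjusted p = 0.161), and without GFP replicate 3 the change was 0.67 (adjusted p = 0.0339).

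The next comparisons asked whether the Cre response of Vhl/Rassf1a cells differed from that of cells with a single alteration, and they share no libraries between the genotypes set against each other. Against Rassf1a cells, 0 members had a higher response and 3 a lower one, beside 7.95% and 7.1% of all tested genes (15% in either direction). The response of Islr differed by -1.85 on the log2 scale (SE 0.21, adjusted p = 1.05e-06, edgeR). That of Fmod differed by -0.82 (SE 0.10, adjusted p = 3.59e-06). The Bgn response differed by -0.20 (SE 0.05, adjusted p = 0.0115), a call that was lost when the 4 groups were fitted alone (adjusted p = 0.0558). The responses of Dcn (0.35, 95% interval -0.01 to 0.72), Dpt (0.52, 0.06 to 0.99) and Lrrc15 (0.52, 0.12 to 0.91) missed the threshold, with adjusted p of 0.199, 0.124 and 0.0679. Lrrc15 gained a call in 7 of 19 alternatives, with adjusted p of 0.0482 in DESeq2 and a range of 1.51e-05 to 0.231 over the 19. Dcn passed without Rassf1a GFP replicate 1 (adjusted p = 0.0495). Without both libraries that stand apart, Lrrc15 (0.59, adjusted p = 0.0223) and Ogn (-0.63, adjusted p = 0.00221) passed.

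Against Vhl cells, 4 members had a higher response and 0 a lower one, beside 3.44% and 2.65% of all tested genes (6.09% in either direction). The median difference was 0.60 over the members and 0.01 over all tested genes. Dcn differed by 0.76 (SE 0.17, adjusted p = 0.00908, edgeR), since it rose in Vhl/Rassf1a cells and was level in Vhl cells. Its GFP means were 10.3 CPM in Vhl/Rassf1a and 19.1 in Vhl. Its Cre libraries overlapped, at 15.5 to 19.9 CPM in Vhl/Rassf1a and 18.1 to 19.7 in Vhl. For Lrrc15 the GFP means were 54.6 and 57.4 CPM and the Cre means 93.6 and 57.4, in the same order. Lrrc15 differed by 0.78 (SE 0.19, adjusted p = 0.0142), with the call lost without Vhl GFP replicate 3 (adjusted p = 0.0543) or Vhl/Rassf1a Cre replicate 3 (0.061). For Islr (0.95, SE 0.21, adjusted p = 0.00699) and Fmod (0.65, SE 0.10, adjusted p = 0.000235) the difference was that of a smaller fall from a lower GFP level.

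Dpt (0.54, 95% interval 0.05 to 1.03, adjusted p = 0.208), Ogn (0.74, 0.05 to 1.43, adjusted p = 0.229) and Prelp (0.30, 0.07 to 0.53, adjusted p = 0.126) did not pass in that comparison. Without both libraries that stand apart, Ogn (0.43, adjusted p = 0.0439) and Prelp (0.33, adjusted p = 0.0406) passed. Bgn differed by 0.09 (95% interval -0.03 to 0.20), so a difference beyond 0.20 on the log2 scale lies outside that interval.

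The last question was how far the genotypes differed without Cre, in the GFP libraries. These 3 comparisons share the WT GFP libraries with one another and with the contrast that chose the members. Their counts and p-values are therefore not independent of that choice. A choice of genes that rise with Cre in WT cells favours low WT GFP values, which tilts these comparisons towards higher. The size of this tilt was not tested. The shares of all tested genes, which were not chosen in this way, are given for scale only. In Vhl GFP 9 members were higher than in WT GFP and none was lower, against 17.2% of all tested genes higher and 14.9% lower (32.1% in either direction), and the median log2 difference was 0.99 over the members and 0.01 over all tested genes. Islr was at 28.3 to 32.5 CPM in Vhl GFP and 5.48 to 7.23 in WT GFP (log2 difference 2.23, SE 0.14, adjusted p = 5.10e-11, edgeR). Fmod was at 292.6 to 339.8 CPM against 74.3 to 77.2 (2.03, SE 0.07, adjusted p = 2.13e-15). Prelp was at 109.6 to 133.1 CPM against 32.8 to 33.8 (1.85, SE 0.08, adjusted p = 4.97e-14). In none of these 3 did the groups overlap.

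Lum (1.35, SE 0.22), Ogn (1.18, SE 0.23), Dcn (0.74, SE 0.13) and Bgn (0.24, SE 0.04) were also higher in Vhl GFP than in WT GFP, with adjusted p of 0.000382 or less. Aspn (0.80, SE 0.23, adjusted p = 0.0111) lost its call without WT GFP replicate 3 (0.0602). Dpt (0.54, SE 0.18, adjusted p = 0.0219) lost its call without WT GFP replicate 1 (0.0923) or 3 (0.119) or Vhl GFP replicate 1 (0.127). Lrrc15 was the exception, at 53.2 to 65.0 CPM in Vhl GFP and 45.8 to 66.1 in WT GFP (0.10, 95% interval -0.18 to 0.39).

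Rassf1a GFP cells showed another set. Lum, Dpt, Lrrc15, Dcn and Aspn were higher than in WT GFP and Prelp was lower, which is 5 members against 9.39% of all tested genes higher and 1 against 6.68% lower (16.1% in either direction). Lum was at 12.8, 18.1 and 19.8 CPM against 5.25, 6.10 and 3.50 (log2 difference 1.76, SE 0.22, adjusted p = 3.12e-06, edgeR). Dpt differed by 1.46 (SE 0.17, adjusted p = 1.04e-06), Lrrc15 by 1.44 (SE 0.14, adjusted p = 5.82e-08) and Dcn by 1.06 (SE 0.12, adjusted p = 1.59e-06). The WT GFP values of these genes took part in the choice of the members, so the differences are not independent of that choice. Aspn (0.92, SE 0.23, adjusted p = 0.00783) lost its call without WT GFP replicate 3 (0.0511) or Rassf1a GFP replicate 3 (0.0573), and in the fit of only the groups compared (0.0522). Prelp was at 23.1 to 24.9 CPM against 32.8 to 33.8 (-0.46, SE 0.08, adjusted p = 0.000234). Ogn differed by 0.57 (SE 0.23, adjusted p = 0.102), and by 0.81 (adjusted p = 0.00921) without Rassf1a GFP replicate 1.

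In Vhl/Rassf1a GFP 3 members were higher than in WT GFP and none was lower, against 6.86% and 4.68% of all tested genes (11.5% in either direction). These were Fmod (0.90, SE 0.07, adjusted p = 3.38e-09, edgeR), Islr (0.89, SE 0.15, adjusted p = 0.000146) and Prelp (0.46, SE 0.08, adjusted p = 0.00024). Each Vhl/Rassf1a GFP library of these genes lay between the WT GFP and the Vhl GFP libraries. Without both libraries that stand apart, Aspn (0.95, adjusted p = 1.18e-07) and Ogn (0.48, adjusted p = 0.00134) were higher too. Dcn (-0.15, 95% interval -0.42 to 0.13) and Lrrc15 (0.03, -0.26 to 0.31) were near the WT GFP level.

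**Figure D3:**
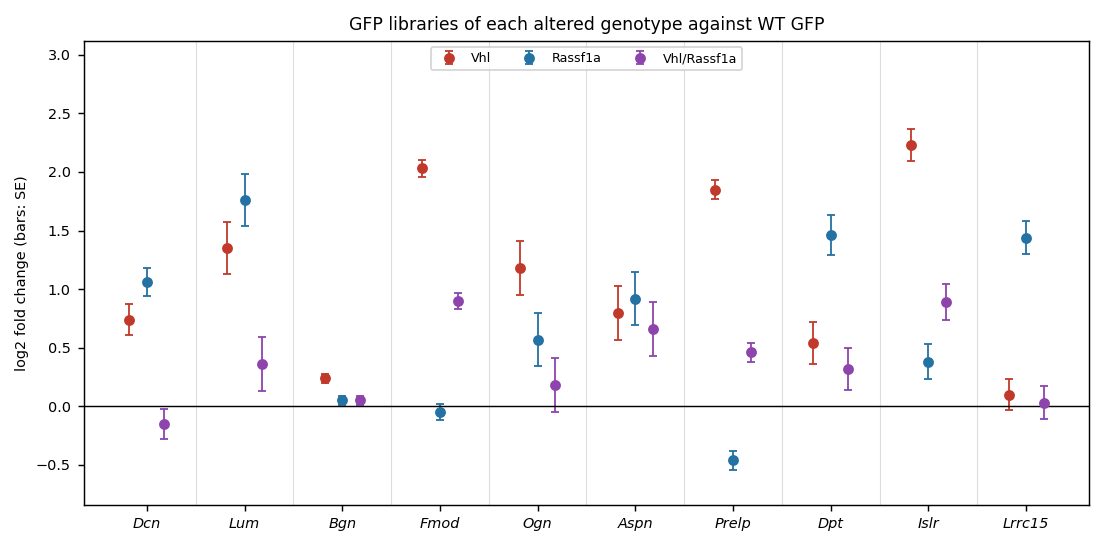
Log2 fold change of each member between the GFP libraries of Vhl, Rassf1a and Vhl/Rassf1a cells and those of WT cells, with bars of 1 SE, from the edgeR fit. Islr, Fmod and Prelp are highest in Vhl, whereas Lrrc15 and Dpt are highest in Rassf1a and Prelp is below 0 there.

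The order of the 8 groups therefore differed between members. Prelp had the clearest order, with Vhl Cre at 120.9 and Vhl GFP at 120.3 CPM, which overlapped, then Vhl/Rassf1a Cre at 56.7, Vhl/Rassf1a GFP at 45.9, WT Cre at 38.0, WT GFP at 33.3, Rassf1a Cre at 28.0 and Rassf1a GFP at 24.2. From Vhl GFP down, none of the neighbours in this order overlapped. For Dcn, Rassf1a Cre stood alone at 31.0 CPM, 5 groups from Rassf1a GFP at 23.7 to Vhl/Rassf1a Cre at 17.2 overlapped with their neighbours, and WT GFP at 11.4 and Vhl/Rassf1a GFP at 10.3 lay below them. Fmod ran from Vhl GFP at 308.9 CPM through Vhl/Rassf1a GFP at 140.7 and Vhl Cre at 115.1, each free of overlap with the next, to 5 groups between 73.1 and 83.6. For Islr, Vhl GFP stood alone at 28.3 to 32.5 CPM, and each of the other groups overlapped with its neighbour, down to Vhl/Rassf1a Cre at a mean of 3.62. Lrrc15 and Dpt were both highest in Rassf1a Cre, at 173.8 and 10.6 CPM.

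The members lie on 6 chromosomes, and 3 pairs are neighbours. Dcn and Lum are 47 kb apart on chromosome 10 (97479609 to 97518143 and 97565128 to 97572703, GRCm38, both on the plus strand). Aspn and Ogn are 40.5 kb apart on chromosome 13, and Prelp and Fmod 115.8 kb apart on chromosome 1, on opposite strands. Correlations were taken in log2 CPM over the 24 libraries, which share group and depth effects. Dcn and Lum were at r = 0.90, Aspn and Ogn at 0.64, and Prelp and Fmod at 0.76. The last pair nevertheless parted with Cre in Vhl cells, where Fmod fell and Prelp did not pass the test. Genes on different chromosomes could be as close, with r = 0.89 for Dpt and Lrrc15 and 0.95 for Bgn and Islr.

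Group means were then taken out over the same 24 libraries. Aspn and Ogn correlated at 0.97, Prelp and Fmod at 0.76, and Dcn and Lum at 0.75. Dpt, whose transcript has 48.7% GC, was close to Lum (0.83), to Dcn (0.75) and to Lrrc15 (0.70). Dcn was at 0.80 with Aspn and 0.76 with Ogn, which lie on another chromosome. Prelp and Fmod have 53.8% and 53.7% GC. Whether the within-group values follow GC content was not tested. Aspn (34.3% GC in its longest transcript), Ogn (36.3%), Dcn (37.4%) and Lum (41.9%) are poorer in GC than the tested genes, whose median was 49.7%. In Rassf1a GFP replicate 1, Aspn was at 0.507 and Ogn at 0.528 times the mean of the other 2 libraries of that group, and Dcn was at 0.757. In Vhl/Rassf1a GFP replicate 2, Aspn was at 0.443, Ogn at 0.431 and Dcn at 0.774 times that mean, while Islr, the richest member in GC, was at 1.31. Omd, another SLRP of the Aspn and Ogn cluster with 36.1% GC, was at 0.459 and 0.284. The cause of the low values in these libraries was not tested.

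**Figure D4:**
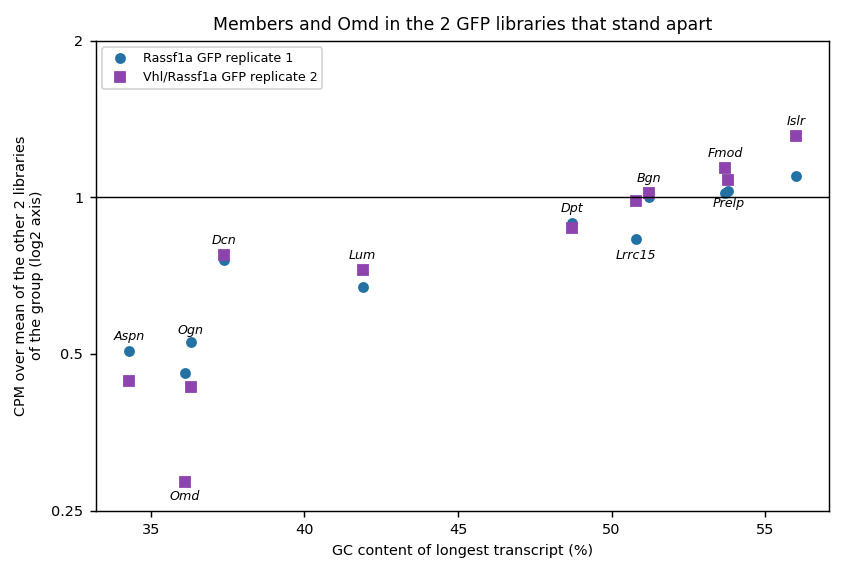
CPM of each member and of Omd in the 2 GFP libraries that stand apart, divided by the mean of the other 2 libraries of the group (log2 axis), against the GC content of the longest transcript in percent. The genes of lowest GC content, Aspn, Omd and Ogn, lie between 0.284 and 0.528, and the members above 48% GC lie between 0.831 and 1.31.

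**Figure D5:**
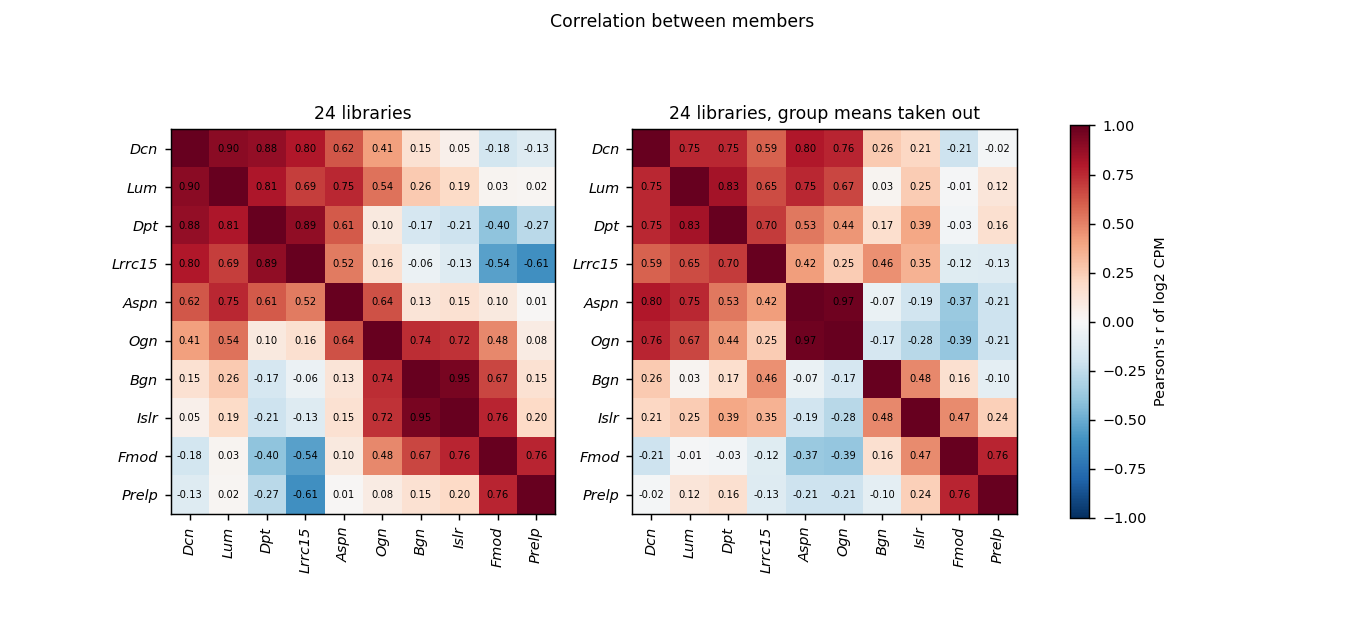
Pearson correlation of log2 CPM between the members over 24 libraries, on the left as measured and on the right with the mean of each group taken out. Dcn, Lum, Dpt and Lrrc15 form one block with r of 0.69 to 0.90 on the left, and Aspn and Ogn reach 0.97 on the right.

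Genes with the most similar pattern over the 24 libraries were looked up among 10233 genes, as a description with no p. Dcn was followed most closely by Lum (0.90), by Postn (0.90), which encodes the matrix protein periostin, and by Rnase4 (0.89). Lrrc15 was closest to Thbs2 (0.94), Ctsk (0.93) and Cdh11 (0.93), and Dpt to Rnase4 (0.92), Tenm3 (0.92) and Postn (0.90). Thus Postn was near both Dcn and Dpt. Fmod was closest to Ltbp2 (0.93), Islr to Sned1 (0.96) and Prelp to Timp2 (0.98), an inhibitor of matrix proteases. Ogn was closest to Dse (0.95), the epimerase that turns chondroitin into dermatan sulfate, and Aspn to its neighbour Omd (0.90). Lum was closest to Cxcl14 (0.92) and Bgn to Islr (0.95).

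Other leucine-rich matrix genes were looked at as a list of 14, of which 11 were tested. With Cre, 4 were higher and 2 lower in Vhl cells, 4 were higher and 0 lower in Vhl/Rassf1a cells, and 0 changed in Rassf1a cells, against the percentages of all tested genes given above for each comparison. Podn, which encodes podocan, rose in Vhl (log2 change 0.43, adjusted p = 0.000772, edgeR) and in Vhl/Rassf1a cells (0.67, adjusted p = 8.28e-06). Lrrc17 fell in Vhl cells (-0.72, adjusted p = 2.01e-07), and its Vhl/Rassf1a response was higher by 0.88 (adjusted p = 4.54e-05). The cornea SLRP Kera was between 0 and 0.106 CPM in the 24 libraries.

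Of 15 genes of collagens, the partners of these proteins, 8 were lower and 1 higher with Cre in Vhl cells, beside 18.7% and 17.4% of all tested genes, and 6 did not pass. Their median log2 change was -0.32. Col6a3 fell from a mean of 1417 to 726.4 CPM (-0.96, adjusted p = 2.58e-09, edgeR) and Col1a2 by -0.50 (adjusted p = 1.31e-06). In Vhl/Rassf1a cells 2 of 15 were lower and 1 higher, beside 14.8% and 14.9% of all tested genes, with a median of -0.01. The Vhl/Rassf1a response was higher than the Vhl response for 8 of the 15 and lower for 0, beside 3.44% and 2.65% of all tested genes, and Col3a1 differed by 0.55 (adjusted p = 0.0015). In GFP libraries 13 of the 15 were higher in Vhl than in WT, beside 17.2% of all tested genes, among them Col14a1 (2.59, adjusted p = 1.03e-13). In Rassf1a GFP 13 were higher and 1 lower, beside 9.39% and 6.68%.

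Enzymes that process and crosslink collagen went in both directions. With Cre, 10 of 22 were higher and 7 lower in Vhl cells, and 7 higher and 5 lower in Vhl/Rassf1a cells, beside 36.1% and 29.7% of all tested genes called in either direction. The hydroxylase genes P4ha2 (1.70, adjusted p = 1.35e-16, edgeR) and Plod2 (1.75, adjusted p = 1.96e-11) and the lysyl oxidase gene Loxl2 (1.26, adjusted p = 2.80e-12) rose in Vhl cells. In Vhl/Rassf1a cells the values were 1.56 for P4ha2 and 1.79 for Plod2, with adjusted p of 6.63e-16 and 2.01e-11. Fmod and Ogn fell in the same Vhl libraries in which these enzymes rose.

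Of 19 other fibril organisers, 11 were lower and 4 higher with Cre in Vhl cells (median -0.21), beside 18.7% and 17.4% of all tested genes. Abi3bp (-2.01, adjusted p = 6.95e-15, edgeR), Thbs3 (-1.67, adjusted p = 1.60e-13) and Fbln1 (-1.06, adjusted p = 3.42e-10) fell as Islr and Fmod did. In Vhl/Rassf1a cells 5 were lower and 8 higher, beside 14.8% and 14.9%, among them Mfap5 (0.77, adjusted p = 2.26e-08). Between the 2 genotypes the Cre response was higher in Vhl/Rassf1a cells for 8 of the 19 and lower for 0, beside 3.44% and 2.65%. Fbln1 differed by 0.83 (adjusted p = 5.76e-05) and Thbs2 by 0.62 (adjusted p = 5.81e-05).

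The sugar chains of these proteins need their own enzymes. Of 18 genes of chondroitin and dermatan sulfate synthesis, 4 were lower and 3 higher with Cre in Vhl cells, and 3 lower and 4 higher in Vhl/Rassf1a cells. These shares lie near the 36.1% and 29.7% of all tested genes called in either direction, so the counts are no result about this list. Csgalnact1, which starts chondroitin chains, fell in Vhl cells (-1.15, adjusted p = 9.83e-11, edgeR), as did Xylt1 (-0.75, adjusted p = 5.44e-06), which attaches the first sugar to the core protein. Dse fell by 0.32 on the log2 scale (adjusted p = 3.74e-05). Of 8 tested genes of keratan sulfate synthesis, 2 were lower and 1 higher in Vhl cells and 0 passed the test in Vhl/Rassf1a or Rassf1a cells, beside 36.1%, 29.7% and 0.392% of all tested genes in either direction.

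TGF-beta is bound by decorin, biglycan, fibromodulin and asporin. Of 17 ligands, receptors, latent binding proteins and targets, 8 were lower and 4 higher with Cre in Vhl cells, and 7 lower and 4 higher in Vhl/Rassf1a cells, beside 18.7% lower and 17.4% higher, and 14.8% lower and 14.9% higher, of all tested genes. Among those that moved in Vhl cells, Ltbp4 (-1.79, adjusted p = 5.79e-11, edgeR), which holds the latent ligand in the matrix, and the co-receptor gene Tgfbr3 (-0.98, adjusted p = 4.73e-12) fell. Of 10 receptors known to bind SLRPs, 5 were lower and 3 higher with Cre in Vhl cells, beside the same 18.7% and 17.4%, with Tlr2, a receptor of biglycan, at -0.66 (adjusted p = 1.08e-05) and Itga2, a collagen receptor chain, at 0.92 (adjusted p = 1.57e-07). Of 7 tested proteases that cut SLRPs, 4 were lower and 1 higher in Vhl cells, again beside 18.7% and 17.4%, including Mmp2 (-0.72, adjusted p = 9.41e-10), Mmp3 (-1.24, adjusted p = 2.63e-08) and Mmp13 (-1.26, adjusted p = 5.02e-08). In Rassf1a cells none of the 9 pathway lists had a gene past the threshold.

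Fmod, Prelp and Aspn are also transcripts of tendon and cartilage, so markers of neighbouring cell types were read in the same libraries. The 6 tendon markers summed to 122.5 to 134.7 CPM in Vhl GFP libraries and 67.8 to 74.2 with Cre, with 126.6 to 129.6 and 81.1 to 88.2 for GFP and Cre of Vhl/Rassf1a. Of the 5 tested, 4 were lower with Cre in Vhl cells, beside 18.7% of all tested genes. The immediate early gene Egr1 was at -0.87 (adjusted p = 4.22e-10, edgeR) and Tnmd at -0.82 (adjusted p = 9.52e-06). The 9 cartilage markers summed to 646.7 to 790.8 CPM in Vhl GFP libraries, 516.1 to 622.5 in Vhl Cre and 305.3 to 396.2 in WT GFP. The 12 fibroblast markers, led by Col1a1 and Col1a2, summed to 31651 to 33359 CPM for Vhl GFP and 24868 to 27512 for Vhl Cre. Of the 11 tested, 5 were lower and 1 higher, beside 18.7% and 17.4% of all tested genes. Mean Col1a1 went from 15957 to 12796 CPM and Col1a2 from 10000 to 7073. Pdgfra (82.1 to 56.3) and Pdgfrb (415.3 to 269.5) were also lower, while Vim (4656 to 4718) and Thy1 (627.0 to 655.6) were not. The 6 epithelial markers, led by Krt19, summed to 37.5 to 38.6 CPM for Vhl GFP and 124.9 to 145.1 for Vhl Cre. The 5 mesothelial ones, which share Krt19, summed to 39.3 to 49.2 CPM and 119.0 to 137.5. Of those tested, 4 of 4 epithelial and 1 of 5 mesothelial markers were higher and 0 lower, beside 17.4% and 18.7% of all tested genes. The mesothelial median log2 change was 0.10, with a range of -0.50 to 1.85. The 7 skeletal muscle markers, led by Acta1, summed to 134.3 to 151.6 CPM and 376.9 to 454.6. Only 2 of the 7 were tested, and both were higher. The myogenic factor Myf5 was at 0 in the 3 Vhl Cre libraries, and also throughout WT GFP, WT Cre, Rassf1a Cre and Vhl/Rassf1a Cre. For Vhl/Rassf1a the epithelial sum was 75.2 to 96.6 CPM in GFP libraries and 192.8 to 200.4 in Cre libraries. The mesothelial sum was 75.8 to 94.6 and 186.2 to 192.1, and the skeletal muscle sum 192.5 to 242.8 and 462.0 to 485.6. In that genotype 2 of 4 tested epithelial, 2 of 5 mesothelial and 2 of 2 muscle markers were higher. None was lower, beside 14.9% higher and 14.8% lower of all tested genes. Smooth muscle markers summed to 5156 to 5579 CPM for Vhl GFP and 5282 to 5931 for Vhl Cre, and bone markers to 58.8 to 62.7 and 54.1 to 56.4. Bulk libraries cannot tell fewer cells of a type from less RNA per cell, and the part of these marker differences in the falls of Fmod, Islr, Ogn and Bgn was not tested.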

How the data were processed

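The deposited table holds raw read counts per Ensembl gene for 24 libraries, read as whole numbers. Per the labels' protocols, a NucleoSpin kit gave the RNA and a TruSeq Stranded kit the libraries. Reads were trimmed with Trimmomatic 0.38 and aligned with STAR 2.5.2b, and the build was GRCm38, per the submitters' processing notes. How reads were counted, including strand, is not given in the sources used here, which leaves overlapping genes uncertain. Aspn shares 7 exon bases with Cenpp (1.61 to 4.67 CPM) and Prelp 350 with Gm15851 (at most 0.0507 CPM), both on the opposite strand. Gene models came from GENCODE M21, promoters from RefSeq (GRCm38.p6). No table of proteins was used.

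Groups came from the sample titles. Genes were kept by filterByExpr of edgeR 4.0.16 (minimum count 10, minimum total 15), which left 16573. A quasi-likelihood model with 1 mean per group, TMM scaling and 16 residual degrees of freedom took in all 24 libraries (R 4.3.3) and was tested on simulated data. Tests were two-sided, with Benjamini-Hochberg adjustment over all tested genes within each of 8 tested comparisons, with a threshold of 0.05. The common coefficient of biological variation was 7.73%, and totals of 29.9 to 55.8 M counts set the precision. All replicate pairs differed by more than sampling noise (lowest chi-square over its degrees of freedom 2.86). SE is the log2 change over the root of F, and 95% intervals use 16 degrees of freedom. CPM use TMM library sizes, and RPKM divide them by the union of exons.

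Named genes are the members, Vhl, up to 3 genes of each pathway list with the smallest adjusted p past the threshold in a comparison, and for each member the 3 genes of highest Pearson r (log2 CPM, prior count 2, mean CPM of at least 5). 1 other gene picked by this rule is not reported here. Markers were read from 10 lists, and those named from them, with Rassf1, Xist, Ddx3y, Kera and Omd, stand outside the rule. Members, lists and tests were chosen with earlier results of these data known. Alternatives were DESeq2 1.42.0 and its size factors, no filter, a fit limited to the compared groups, a replicate block, and leaving out each library or both that stand apart. Offsets corrected for GC content (loess, span 0.3) were added after seeing the data.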

Additional observations from a re-analysis of the deposited data

Results flagged for a closer look

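The Cre response of 5 members differed between genotypes in the edgeR test of the difference itself. Between Vhl/Rassf1a and Rassf1a cells the difference was -1.85 on the log2 scale for Islr, -0.82 for Fmod and -0.20 for Bgn. Between Vhl/Rassf1a and Vhl cells it was 0.95 for Islr, 0.78 for Lrrc15, 0.76 for Dcn and 0.65 for Fmod. No test for a single outlying sample was applied within the groups of 3 libraries.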

How the results depend on the processing

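No member's called change was reversed by any alternative, and 580 of 600 values stayed on their side of the threshold when 1 library was left out. Leaving out 1 library gave 4 to 5 members called in Vhl, 0 to 0 in Rassf1a and 7 to 8 in Vhl/Rassf1a for Cre against GFP, 3 to 5 and 3 to 4 for the Vhl/Rassf1a response against the Rassf1a and the Vhl response, and 7 to 9, 5 to 7 and 3 to 4 for Vhl, Rassf1a and Vhl/Rassf1a GFP against WT GFP. Over all genes, in the same order, the ranges were 5089 to 5320, 24 to 67, 4055 to 4782, 2071 to 2918, 713 to 1186, 4356 to 4778, 2003 to 2579 and 1399 to 1964. Without the filter, 3 members were called in Rassf1a (main 0), and 5 were called (main 3) both for the Vhl/Rassf1a against the Rassf1a response and for Vhl/Rassf1a GFP against WT GFP. Those 2 counts were also 5 without both libraries that stand apart and 5 with GC-corrected offsets. The cause was not tested.

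The number of genes called in Rassf1a Cre against GFP was 65, and 151 without the filter, 12 in the fit of only the groups compared, 112 without both libraries, 103 with DESeq2 and 182 with GC-corrected offsets. The fit of only the groups compared called more genes in Vhl Cre (7204, main 5991) and Vhl GFP (6223, main 5319) and fewer elsewhere, with 3008 in Vhl/Rassf1a Cre (main 4919), 631 for the Vhl/Rassf1a against the Vhl response (main 1010), 1466 in Rassf1a GFP (main 2664) and 778 in Vhl/Rassf1a GFP (main 1913). Without both libraries the Vhl/Rassf1a against the Vhl response had 1856. With GC-corrected offsets the counts were 4431 for the Vhl/Rassf1a against the Rassf1a response (main 2493), 2162 against the Vhl response, 4008 in Rassf1a GFP and 3350 in Vhl/Rassf1a GFP. These offsets also moved the split of higher and lower calls. It went to 3175 and 4568 in Vhl Cre (main 2884 and 3107) and 2523 and 4567 in Vhl/Rassf1a Cre (main 2466 and 2453). For GFP it was 2938 and 4186 in Vhl (main 2857 and 2462) and 1706 and 2302 in Rassf1a (main 1557 and 1107). In Vhl/Rassf1a GFP it was 1328 and 2022 (main 1137 and 776). The Vhl/Rassf1a against the Rassf1a response had 1583 and 2848 (main 1317 and 1176). Against the Vhl response it had 1038 and 1124 (main 570 and 440).

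The labels do not say whether replicate numbers pair the libraries. Deviations of same-numbered GFP and Cre libraries correlated between -0.377 and 0.205, and those of unlike number between -0.288 and 0.376. With 3 libraries a group, these values cannot decide whether the libraries were paired. A fit with the replicate block called 5, 0, 7, 4, 4, 9, 6 and 3 members in the order above, and the 4 includes Lrrc15 (adjusted p = 0.0408) in the Vhl/Rassf1a against the Rassf1a response. The SE was largest for Ogn and Aspn (0.23 or 0.24 between 2 groups), which are not the members of fewest counts.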
